A study of Mus musculus with 2 samples.

Results

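The mitochondrial ribosomal proteins are the 78 genes whose symbol starts with Mrpl or Mrps followed by a digit and which have at least 1 transcript of the protein_coding biotype, out of 55536 annotated genes and 21901 with such a transcript. By symbol, 49 are named for the large subunit and 29 for the small subunit. The subunit groups below follow the symbol, which need not give the place of every protein. The tissue is the gastrocnemius, a fast calf muscle. The mice were 5xFAD/CAST males aged 8 to 10 months, a cross of the wild-derived CAST strain with 5xFAD, an amyloid model whose human transgenes are driven by a neuronal promoter. The series has 1 group of 2 total RNA libraries, replicates 1 and 2, each made from 300 ng of RNA after reduction of ribosomal RNA. The labels give separate biosamples for the libraries under 1 donor entry and name no separate animals, so the spread between them may be partly technical. No other genotype, age or tissue is present, and the data give levels and the distance between 2 libraries, with no p-value. The gene tables held 35350142 and 35580757 expected counts, of which the 78 genes took 51466 and 50173. The muscle fibre markers Ckm, Acta1, Myh4, Tnnt3, Pvalb and Atp2a1 had a median of 15147 and 14548 TPM in replicates 1 and 2.

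Mitochondria keep their own ribosome, which translates the few membrane proteins of the respiratory chain that the mitochondrial genome encodes. Its rRNAs come from the mitochondrial genome, while all its proteins come from nuclear genes and are imported. Some of the proteins descend from those of bacterial ribosomes, and others were added in the mitochondrial lineage and have no bacterial counterpart. Muscle fibres depend on this ribosome to build the respiratory complexes.

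In TPM, a level scaled for transcript length and library size, the 78 genes had a median of 23.98 in replicate 1 and 22.41 in replicate 2, or 23.2 ± 1.11 (SD, n = 2, as in all later values with ±). Nuclear coding genes at a mean of 1 TPM or more, 10357 in all, had medians of 8.06 and 7.33 TPM. At least 10 TPM was reached in both libraries by 69 of the 78 genes, against 19.1% of all genes with a protein-coding transcript. Together the 78 genes held 2500 and 2316 TPM, which is 0.241% ± 0.013 of the total. The 92 genes for proteins of the cytosolic ribosome had a median of 187 and 177 TPM, 7.86 ± 0.083 times that of the mitochondrial set. The 13 coding genes of the mitochondrial genome, whose mRNAs this ribosome translates, had a median of 5285 and 5313 TPM.

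**Figure D1:**
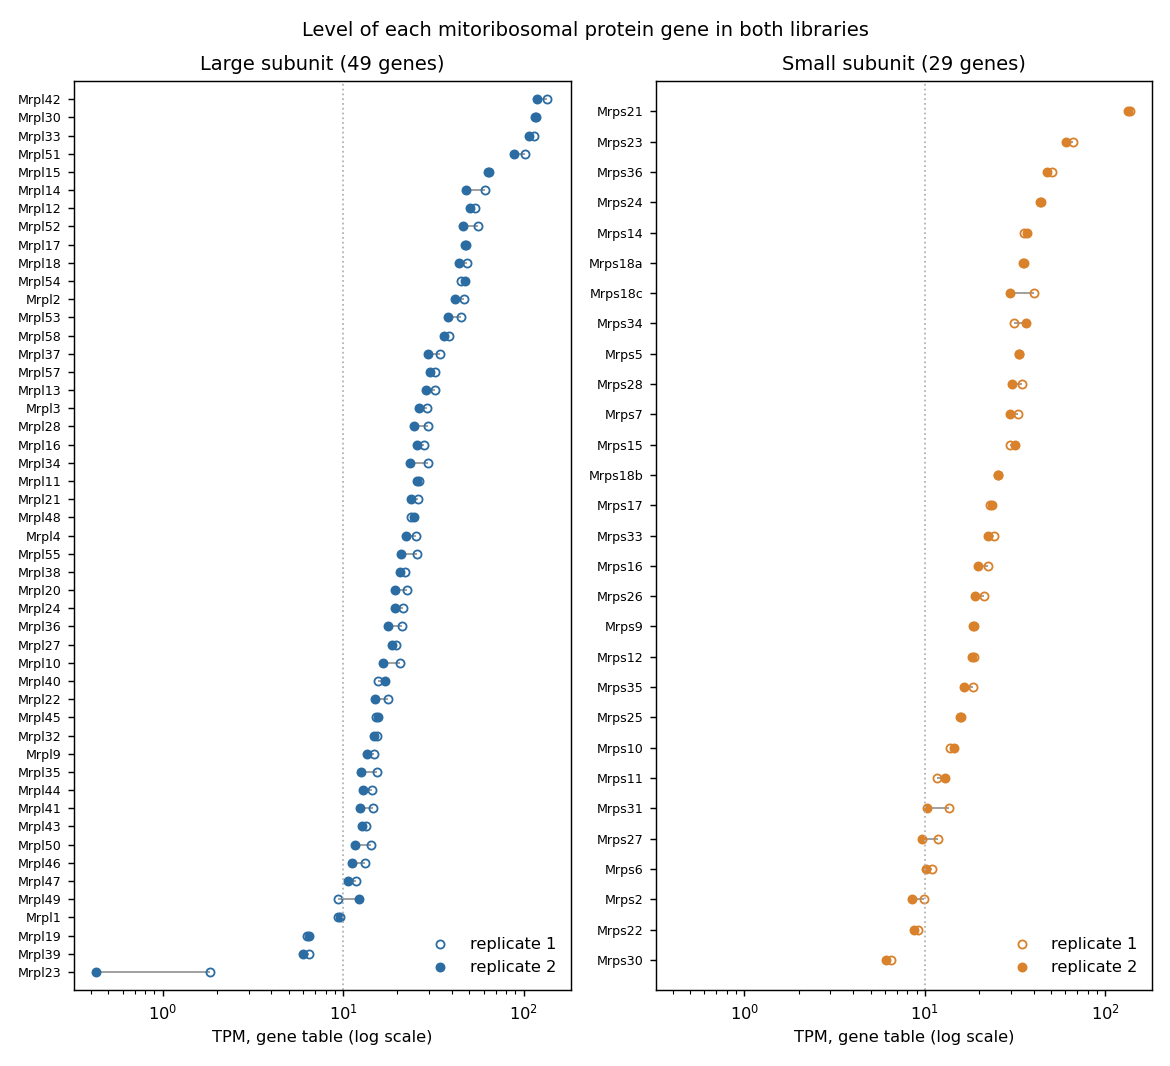
TPM (log scale) of each of the 49 large-subunit and 29 small-subunit genes in replicate 1 (open) and replicate 2 (filled), sorted by mean within each subunit; the dotted line marks 10 TPM. Mrps21, Mrpl42, Mrpl30, Mrpl33 and Mrpl51 stand at the top, and Mrpl23 stands below all others at 1.82 and 0.43 TPM.

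Single genes spread widely around this median. Mrps21, the homologue of bacterial S21, was the highest, at 136.77 and 134.08 TPM. Mrpl42, a protein without a bacterial counterpart, was at 135.04 and 118.41 TPM. Mrpl30 and Mrpl33, homologues of bacterial L30 and L33, had 116.29 and 117.52 TPM and 113.96 and 106.77 TPM. These 4 exceeded every other member in both libraries. Mrpl51, another mitochondria-specific protein, was next with 102.25 and 88.67 TPM. The first 5 genes held 24.3% ± 0.172 of the TPM of all 78. They were followed by Mrpl15 (64.15 and 63.13 TPM), Mrps23 (66.26 and 60.23 TPM) and Mrpl14 (61.4 and 47.78 TPM). Mrpl12, the stalk protein that recruits translation factors, had 53.99 and 50.62 TPM, and Mrpl52 had 56.19 and 46.09 TPM. Mrps23 was above Mrpl15 in replicate 1 and below it in replicate 2, and Mrpl14 and Mrpl12 changed places in the same way. In the kallisto-layout tables, a separate quantification of the same libraries, the first 6 were the same genes and Mrps23 ranked 15.

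Mrpl23, Mrpl39, Mrps30, Mrpl19 and Mrps22 formed the bottom of the order. Mrpl39 had 6.47 and 5.98 TPM, Mrps30 had 6.47 and 6.12 TPM, and Mrpl19 had 6.28 and 6.44 TPM. These 3 did not differ beyond the spread between the libraries. Mrps22, a small-subunit protein in which human mutations cause mitochondrial disease, had 9.22 and 8.71 TPM. Between the 10 highest and the 5 lowest lay 63 members, 38 of the large and 25 of the small subunit, from 9.37 to 50.61 TPM in replicate 1 and from 8.54 to 47.78 TPM in replicate 2. Leaving Mrpl23 aside, the highest gene exceeded the lowest by 22.1 ± 0.454 times. The order was the same to a large degree in both libraries, with a Spearman correlation of 0.99 across 77 genes, which share library and depth.

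The subunits had similar medians. The large subunit had 25.22 and 22.39 TPM and the small subunit 23.0 and 22.42 TPM, a ratio of small to large of 0.957 ± 0.063. The ratio was 0.912 in replicate 1 and 1.0 in replicate 2, so the direction was not the same in both. With Mrps18a and Mrps30 counted as large and Mrps36 left out, the ratio was 0.919. The 46 homologues of bacterial proteins had a median of 26.22 and 24.16 TPM, and the 32 mitochondria-specific proteins had 19.88 and 18.09 TPM. Their ratio was 1.33 ± 0.012 and was above 1 in both libraries. Both classes span most of the range, since Mrps21 and Mrpl19 are homologues and Mrpl42 and Mrpl39 are mitochondria-specific.

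Short genes had the higher levels. Across 77 members without Mrpl23, the Spearman correlation of transcript length with TPM was -0.65, against -0.16 over the 10357 nuclear coding genes at 1 TPM or more. The genes are not independent replicates, and TPM contains the length in its denominator. The 38 members shorter than 925 bases had a median of 33.91 and 31.9 TPM, and the 39 others had 15.86 and 16.65 TPM. This split was made after the levels had been seen.

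Functional sites of the ribosome did not share 1 level. Among the stalk proteins, which contact elongation factors, Mrpl12 (53.99 and 50.62 TPM) stood above Mrpl11 (26.4 and 25.68 TPM) and Mrpl10 (20.65 and 16.65 TPM) in both libraries. Mrpl12 is present in several copies per ribosome and Mrpl10 anchors it. Of the proteins around the exit of the peptide tunnel, Mrpl24 had 21.38 and 19.43 TPM, Mrpl22 had 17.65 and 15.03 TPM, and Mrpl45, which tethers the ribosome to the inner membrane, had 15.27 and 15.64 TPM. Mrpl22 and Mrpl45 overlapped. The 3 homologues of bacterial S18 were measured at 35.11 and 35.47 TPM for Mrps18a, 40.38 and 29.61 TPM for Mrps18c and 25.53 and 25.43 TPM for Mrps18b. Mrps18b was the lowest of these in both libraries, while Mrps18a and Mrps18c changed places.

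Genes in which human mutations are known to impair mitochondrial translation had mean levels from 8.97 TPM (Mrps22) to 52.3 TPM (Mrpl12). Mrps14 had 35.34 and 36.75 TPM, Mrps28 had 34.7 and 30.35 TPM, Mrps7 had 32.66 and 29.72 TPM and Mrpl3 had 29.29 and 26.26 TPM. Mrps34 had 31.35 and 36.29 TPM. Lower values were found for Mrps16 (22.41 and 19.58 TPM), Mrps25 (15.86 and 15.7 TPM) and Mrpl44 (14.47 and 12.93 TPM). The lowest of these were Mrps2 (9.93 and 8.54 TPM) and Mrps22.

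Mrpl23, a homologue of bacterial L23 at the exit of the tunnel, had values that depended on how reads were divided with another locus. The gene (ENSMUSG00000037772, mm10 chr7:142532686-142540747, plus strand) held 32.9 and 21.08 expected counts in the gene tables. The posterior SD of that count reached 109% of the count, and Mrpl23 was the only member above 5%. None of the 77 other members passed that limit, against 1.43% of all coding genes with a mean count of 100 or more. In the kallisto-layout tables Mrpl23 had 62.67 and 75.14 TPM and ranked 7 of 78. A processed pseudogene, Mrpl23-ps1 (mm10 chr2:74591330-74591909, minus strand), held 731.1 and 878.92 expected counts and 59.57 and 67.42 TPM in the gene tables, and it is listed at 0 TPM in both kallisto-layout tables. A processed pseudogene is a copy of a spliced mRNA inserted elsewhere in the genome. The copy matched the Mrpl23 transcript of 692 bases at 540 of 540 aligned bases, including all 438 coding bases before the stop codon, and 39 bases after the match were all A. The first 120 coding bases of both loci, read from the GENCODE M21 transcripts and printed with the start codon in capitals, are the same letter for letter.
Mrpl23: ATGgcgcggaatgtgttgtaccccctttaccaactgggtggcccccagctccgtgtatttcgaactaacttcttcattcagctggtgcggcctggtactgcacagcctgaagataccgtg
Mrpl23-ps1: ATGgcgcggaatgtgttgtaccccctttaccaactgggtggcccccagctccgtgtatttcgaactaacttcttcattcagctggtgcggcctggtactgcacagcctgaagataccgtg

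Gene and copy together had 61.4 and 67.9 TPM in the gene tables, close to the 62.7 and 75.1 TPM of the kallisto-layout tables. Which of the loci gave rise to the reads was not tested. Mrpl23 was the only member at least 1.5-fold apart between the quantifications in both libraries, after the median difference over all genes was removed, against 1.98% of 10370 coding genes at 1 TPM or more. Over the other 77 members the Spearman correlation between quantifications was 0.97, and it was 0.99 over nuclear coding genes at 1 TPM or more.

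**Figure D2:**
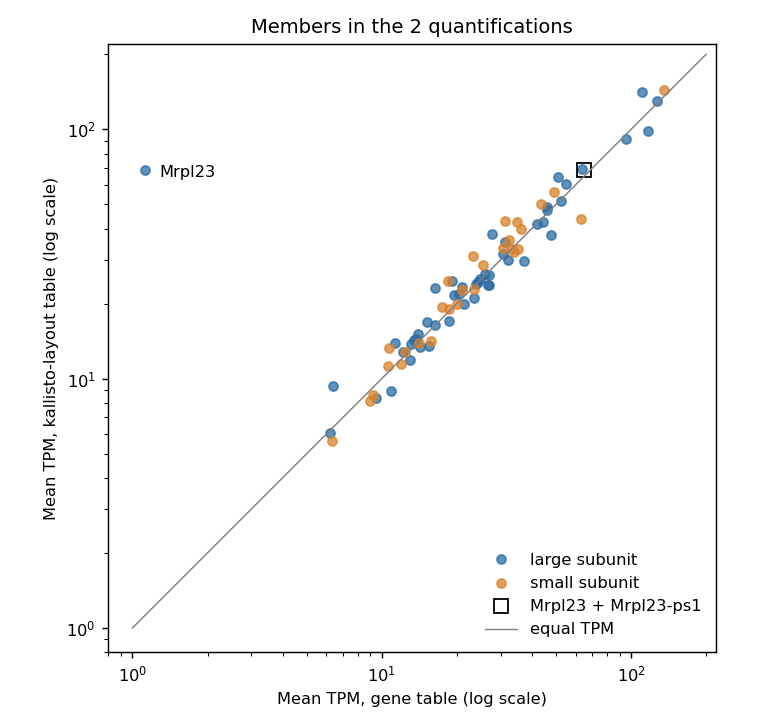
Mean TPM over both libraries in the gene table and in the kallisto-layout table for the 78 genes, both axes on log scales, with the line of equal TPM. Mrpl23 lies at 1.13 and 68.9 TPM, far above the line, and the square shows that adding Mrpl23-ps1 places it on the line at 64.6 and 68.9 TPM.

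Other members also have processed copies. In a search made after the values had been seen, 30 annotated pseudogenes shared at least 50 words of 31 bases with the coding sequence of a member, and they belonged to 23 members. Of these pseudogenes, 5 reached 1 TPM in both gene tables and 3 did so in both kallisto-layout tables, while 17 were listed at 0 in both gene tables. Gm5776, a copy of Mrps33 identical at 317 of 318 bases, had 7.96 and 4.7 TPM in the gene tables and 0.377 and 0.0469 TPM in the kallisto-layout tables. Mrps33 itself had 24.17 and 22.42 TPM. Mrpl48-ps (mm10 chr4:88599175-88599810, minus strand) matched Mrpl48 at 621 of 633 coding bases and had 6.54 and 5.7 TPM, against 2.39 and 2.36 TPM in the kallisto-layout tables. Over the first 120 coding bases the gene and the copy differ at T30C and G75A, gene first, counted from 1 at the start codon. Both places are in capitals.
Mrpl48: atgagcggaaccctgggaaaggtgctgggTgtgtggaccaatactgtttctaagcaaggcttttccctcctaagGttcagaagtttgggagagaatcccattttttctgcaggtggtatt
Mrpl48-ps: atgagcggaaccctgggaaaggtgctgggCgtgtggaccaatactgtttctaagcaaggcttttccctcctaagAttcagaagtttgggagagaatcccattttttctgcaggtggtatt

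Mrpl48 had 23.79 and 24.67 TPM, so its copy was at a lower level in both libraries. Copies of the 2 highest members, Gm6181 for Mrps21 and Gm6419 for Mrpl42, had 0 and 0 TPM and 1.05 and 0.4 TPM. Both members were above 100 TPM.

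The second library differed little from the first. On counts scaled with TMM, the 77 members with a mean count of 100 or more had a median log2 ratio of replicate 2 to replicate 1 of 0.0084, with 40 above 0 and 37 below. The median size of the ratio was 0.08, against 0.086 over all 9321 coding genes tested. A difference of 1.2-fold or more was reached upwards by 2 members, against 4.39% of genes tested, and downwards by 0 members, against 6.58%. The balance turned with the scaling: 6 members were higher and 0 lower with ERCC totals, and 1 was higher and 10 were lower on the TPM scale. Genes tested moved the same way, with 10.6% higher and 3.24% lower, and 3.55% higher and 23.5% lower. The exact 95% binomial interval of the ratio, which covers counting error only, excluded 0 for 10 members, against 23.8% of genes tested. Of these, 8 were higher and 2 lower in replicate 2. Reads are not independent molecules, so the intervals are narrower than the true error.

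Mrps34, which is needed for a stable small subunit, had 664.6 and 806.0 expected counts, a log2 ratio of 0.33 with an interval of 0.18 to 0.48. For Mrps11, a homologue of bacterial S11, the counts were 243.0 and 287.0 and the log2 ratio was 0.29 (0.04 to 0.54). They were followed by Mrps10 with 0.24 (0.03 to 0.46, and 0.13 with the counts of its processed copy on chromosome 17 added), Mrps15 with 0.23 (0.07 to 0.39) and Mrpl54 with 0.22 (0.06 to 0.38). At the other end Mrps31 went from 494.0 to 398.0 counts, and its log2 ratio was -0.26 (-0.45 to -0.07). Mrpl34 had -0.19 (-0.41 to 0.02), Mrpl10 had -0.17 (-0.32 to -0.03), Mrpl50 had -0.14 (-0.3 to 0.01) and Mrpl47 had -0.14 (-0.35 to 0.06). The intervals of Mrpl34, Mrpl50 and Mrpl47 include 0.

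**Figure D3:**
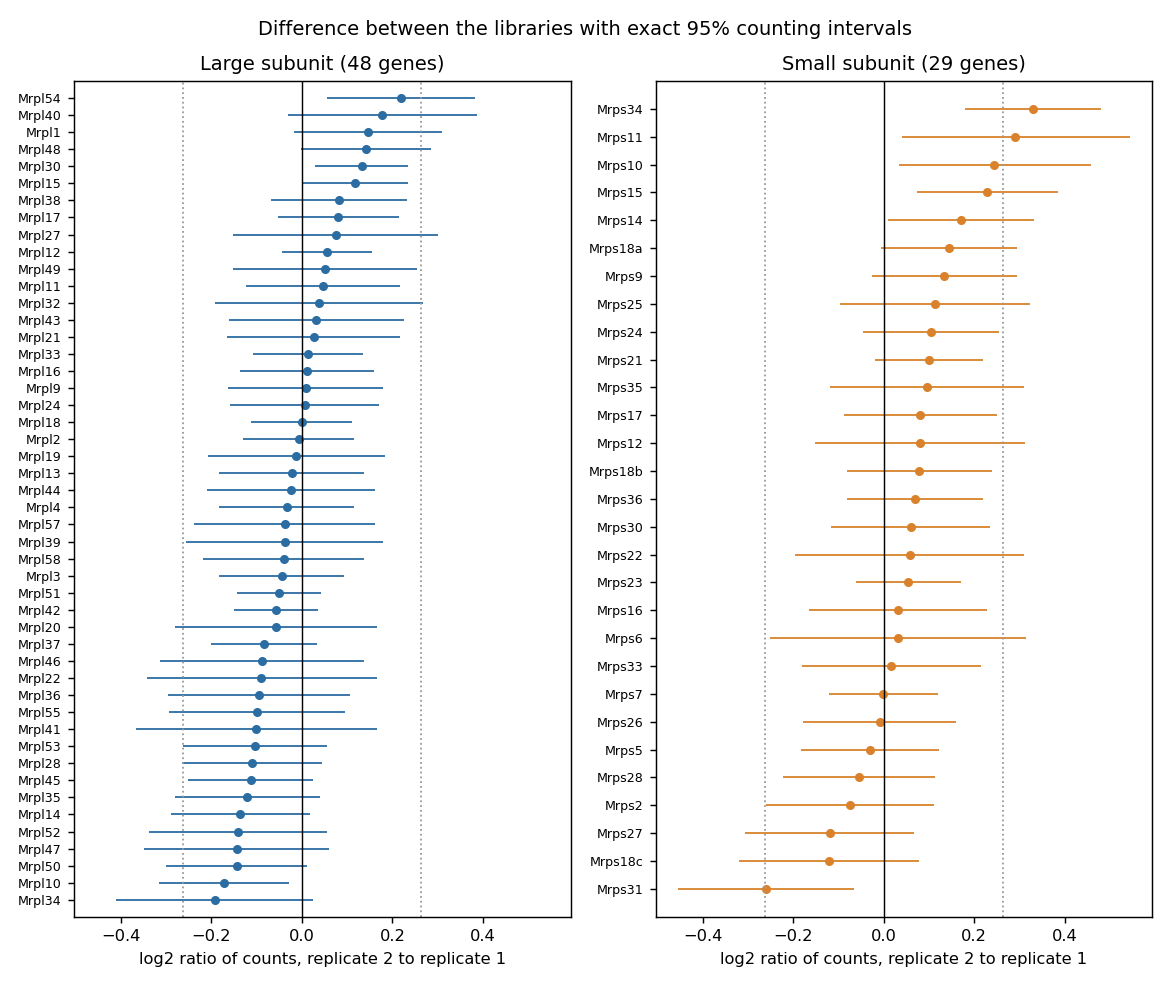
Log2 ratio of counts of replicate 2 to replicate 1, scaled with TMM, for the 48 large-subunit and 29 small-subunit genes with a mean count of 100 or more; bars are exact 95% counting intervals and dotted lines mark 1.2-fold. Most bars cross 0, and Mrps34 and Mrps11 are the points beyond a dotted line.

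Of all 9321 genes tested, 4679 were above 0 and 4642 below, with a median log2 ratio of 0.0004. Of the small-subunit genes, 21 were above 0 and 8 below, with a median of 0.07. Of the large-subunit genes, 19 were above and 29 below, with a median of -0.03. In the kallisto-layout counts the medians of the small and large subunit were 0.05 and -0.03. On the TPM scale, where all genes tested had a median of -0.13, they were -0.08 and -0.14. With 1 library on each side there is no error against which to test the subunits. The 86 cytosolic ribosomal protein genes tested had a median of 0.03, with 62 above 0 and 24 below. The 13 coding genes of the mitochondrial genome had 0.15. For these 13 it was 0.04 in the kallisto-layout counts and 0.01 on the TPM scale, where all genes tested had -0.13. Markers of other cells also differed between the libraries. Of 10 endothelial markers tested 7 were at least 1.2-fold lower in replicate 2, against 6.58% of genes tested. The median log2 ratio of the 10 was -0.34, with a summed level of 90.1 and 67.4 TPM over all 11. Of 7 adipocyte markers tested 5 were at least 1.2-fold lower, and 1, Cfd, was above 0 with a log2 ratio of 0.26. The median of the 7 was -0.37, with a sum of 292.9 and 220.2 TPM over all 8. Median log2 ratios were -0.22 for smooth muscle and pericyte markers, -0.21 for erythroid, -0.20 for Schwann cell, -0.16 for satellite cell and 0.06 for leukocyte markers. Fibroblast markers had a median of 0.13, with 2 of 6 at least 1.2-fold higher, against 4.39% of genes tested. The 6 muscle fibre markers had 0.1, with 6 above 0. The part of these marker differences in the members' ratios was not tested. In whole tissue, fewer cells of a type and less RNA per cell cannot be told apart.

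For some members most of the signal lay in transcripts that are not annotated as coding. In the RSEM transcript table the share of a gene's TPM in transcripts of the protein_coding biotype had a median of 96.7% and 96.5%, and 50 of the 78 genes had at least 90% in both libraries, against 54.0% of coding genes at 1 TPM or more. The leading transcript was of another biotype in both libraries for 15 members, or 19.2%, against 5.13% of coding genes at 1 TPM or more. Of the 15, 6 led with a nonsense_mediated_decay transcript, 5 with a processed_transcript and 4 with a retained_intron. These are annotation classes for transcripts with an early stop, without an open reading frame, or with an unspliced intron. In the kallisto-layout quantification, 17 members did so, against 6.07% of genes. In both quantifications 13 of the 78 members did so, against 398 of 10370 genes, though the leading transcript could differ, as in Mrpl3. Members had a median of 4 annotated transcripts and all genes a median of 5. Among genes at a mean of 10 TPM or more, a limit chosen after seeing the data, 15 of 71 members did so, against 6.18% of 4398 genes.

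The shares were close to complete in several genes. Mrps16-202, a processed_transcript, held 96.7% and 94.0% of Mrps16. Mrps26-201 and Mrpl57-202, both with a retained intron, held 96.3% and 96.2% of Mrps26 and 95.6% and 96.9% of Mrpl57. Mrps14-201, annotated for nonsense-mediated decay, held 94.3% and 95% of Mrps14. Shares of about 8 in 10 were found for the retained-intron transcript Mrps24-201 (83.1% and 81.5%) and for Mrpl32-201 (81.1% and 80.5%), annotated for decay. Under 10% in coding transcripts in both libraries was found for 8 members, against 0.569% of genes. Of these 8, Mrpl51 and Mrpl15 are among the 6 genes of highest level. Mrpl51-202 held 64.3% and 64.2% of Mrpl51, whose coding share was 3.1% and 3.5%. Mrpl15-202 held 58.1% and 59.0% of Mrpl15, whose coding share was 4.9% and 4.8%. The level of such a gene therefore describes all its annotated transcripts.

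In the remaining genes of this kind that are given here, the leading share was 67.6% and 65.1% in Mrps25 (Mrps25-201, retained intron), 66.3% and 70.9% in Mrpl13 (Mrpl13-202, decay) and 64.7% and 69.7% in Mrpl47 (Mrpl47-202, processed_transcript). Mrpl35-202 (decay) held 62.7% and 61.2%, Mrps11-205 (decay) 54.3% and 60.7% and Mrpl3-204 (decay) 52.4% and 46.2%. For Mrps11 the kallisto-layout table led with a coding transcript (Mrps11-201, 48.3% and 51.3%). Mrpl33 went the other way: RSEM gave its coding transcript Mrpl33-201 94.8% and 89.4%, while the kallisto-layout table gave the processed_transcript Mrpl33-211 59.1% and 57.5%. Mrps5 and Mrps7 also led with another biotype in the kallisto-layout table alone. Mrpl19 did so there in both libraries. In the RSEM table its leading transcript was coding in replicate 1 (52.2%) and a processed_transcript in replicate 2 (47.4%).

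**Figure D4:**
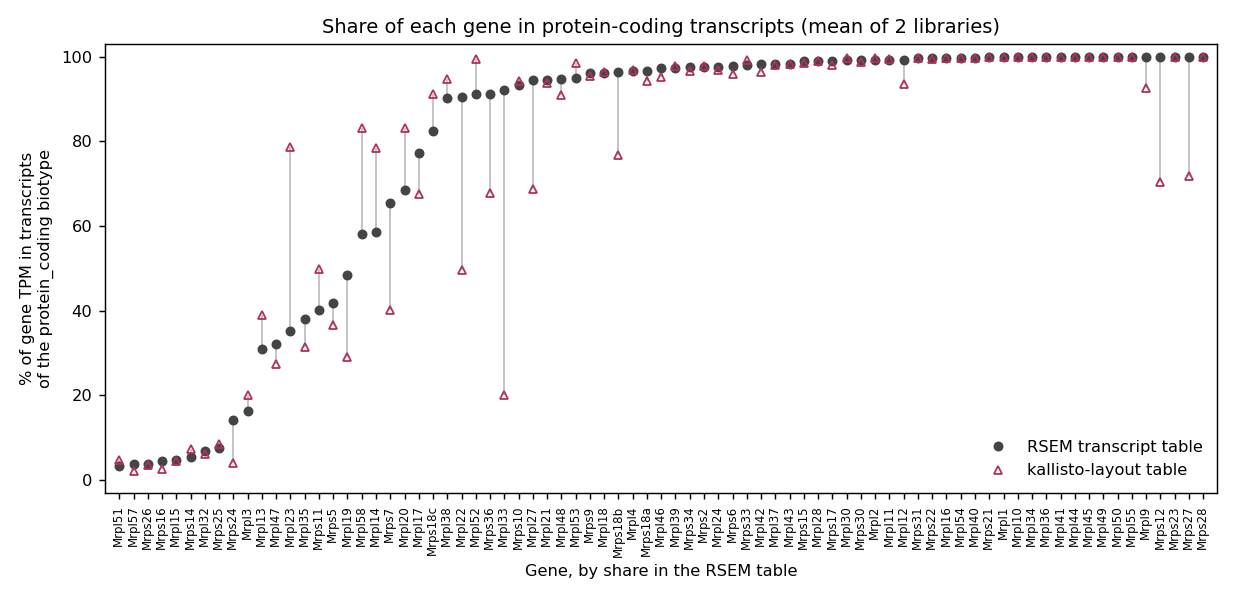
Percent of gene TPM in transcripts of the protein_coding biotype for 77 of the genes, mean of 2 libraries, in the RSEM transcript table (filled) and the kallisto-layout table (triangles), ordered by the RSEM share. Mrpl51, Mrpl57, Mrps26, Mrps16, Mrpl15, Mrps14, Mrpl32 and Mrps25 lie below 10% on the left, and Mrpl33 is among the genes far apart between the quantifications.

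The genes are scattered over 17 chromosomes, and many start next to another gene. For 30 of the 78 the start of the leading coding transcript lay within 1000 bases of the 5′ end of a coding gene on the opposite strand, a head-to-head arrangement with overlapping starts included. That is 38.5%, against 15.5% of coding genes at 1 TPM or more, and it was counted after the levels had been seen. In 11 of the 30 the distance was 100 bases or less. The 30 form 29 pairs, since Mrps11 and Mrpl46 are each other's neighbour. In the rest the mean level of the neighbour was below that of the member in 22 and above it in 6. Neighbours reached 1 TPM in both libraries in 24 cases, and 3 were listed at 0 in both, namely Ska3 beside Mrpl57, Eme1 beside Mrpl27 and Oaz3 beside Mrpl9.

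The pairs named next were picked by hand after their values were seen. Mrps11 and Mrpl46 face each other on chromosome 7 and had 11.74 and 12.97 TPM and 13.22 and 11.21 TPM. Their order was reversed between the libraries. Mrps12 (18.84 and 18.17 TPM) stands beside Sars2, the mitochondrial seryl-tRNA synthetase (5.47 and 5.58 TPM). Mrpl43 (13.44 and 12.77 TPM) stands beside Twnk, the helicase of mitochondrial DNA (8.39 and 8.15 TPM). Mrpl47 (11.83 and 10.68 TPM) stands beside Ndufb5, a subunit of complex I, which was far higher at 263.91 and 239.73 TPM. Mrpl49 (9.42 and 12.3 TPM) stands beside Fau, which encodes a protein of the cytosolic ribosome, at 212.59 and 183.98 TPM. Mrpl51 showed the opposite order, at 102.25 and 88.67 TPM beside the condensin gene Ncapd2 at 6.23 and 4.77 TPM.

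**Figure D5:**
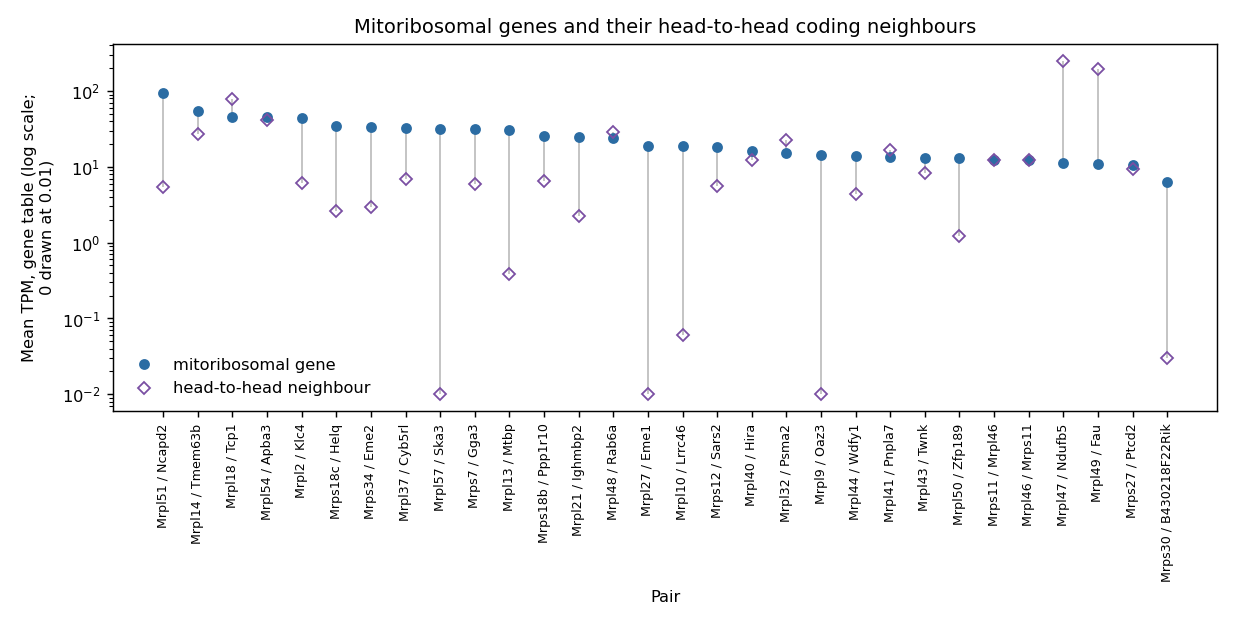
Mean TPM (log scale, genes listed at 0 drawn at 0.01) of the 30 members with a head-to-head coding neighbour (circles) and of the neighbour (diamonds), ordered by the member's level. Mrps11 and Mrpl46 appear both ways round; of the others, the diamond is below the circle in 22, and the diamonds of Ndufb5 and Fau are far above.

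Promoter windows of 300 bases, from RefSeq on GRCm38.p6, each hold an annotated start site. They were kept where this site lay within 100 bases of the start of the leading coding transcript. That gave windows for 58 members and for 6633 coding genes in all. Letters known to be bound by factors of mitochondrial gene control were searched on both strands. GCGCATGCG, the core of the NRF1 site, was in 8.62% of member windows and 4.49% of all windows. CCGGAAGT, bound by GABPA and other ETS factors, was in 15.5% and 10.0%. AAGATGGCG, a YY1 site, was in 13.8% and 4.22%. The windows run past the start, and of the members with this match only Mrpl36 and Mrps11 hold it upstream of the start. TCAAGGTCA, bound by the receptor ESRRA, was in 0 of 58 member windows and 0.211% of all. At least 1 of the 4 was present in 21 members, or 36.2%, and in 17.8% of all windows. A match is a run of letters and was not tested for binding, and the median GC content was 58.5% in members and 61.3% in all. The following stretches of 50 bases upstream of the start, printed with the match in capitals, are the 2 of highest level for NRF1 and for GABPA that hold no annotated exon.
Mrpl10, NRF1, chr11:97041427-97041476, plus strand: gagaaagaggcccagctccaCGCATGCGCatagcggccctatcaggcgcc
Mrpl22, NRF1, chr11:58171611-58171660, plus strand: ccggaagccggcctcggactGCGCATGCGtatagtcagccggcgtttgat
Mrpl43, GABPA, chr19:45006443-45006492, minus strand: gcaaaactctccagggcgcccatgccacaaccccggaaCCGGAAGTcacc
Mrps27, GABPA, chr13:99344717-99344766, plus strand: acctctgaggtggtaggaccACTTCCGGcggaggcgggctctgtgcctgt

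Mrpl10 and Mrps27 hold the motif on the reverse strand, so its letters are printed as the reverse complement. Of these 4 genes Mrpl10, Mrpl43 and Mrps27 have a head-to-head neighbour, and their levels lay between 9.67 and 20.65 TPM.

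Levels of other genes of mitochondrial translation are given by list. The 5 further subunits, which do not carry the Mrp symbol, had a median of 25.66 ± 0.594 TPM, near the members' own. They were Chchd1 (54.39 and 50.55 TPM), Aurkaip1 (34.44 and 31.19 TPM), Dap3 (25.24 and 26.08 TPM), Ptcd3 (24.18 and 21.31 TPM) and Gadd45gip1 (9.02 and 8.41 TPM). None of these 5 differed by 1.2-fold between the libraries. The 11 translation factors had a median of 8.65 ± 0.537 TPM. The elongation factors Tufm (51.67 and 53.73 TPM) and Gfm1 (47.58 and 48.8 TPM) stood above the median of the ribosomal proteins, followed by the recycling factor Gfm2 (20.71 and 17.94 TPM). The lowest were Mtfmt, which formylates the initiator tRNA (2.76 and 2.09 TPM), and the release factor Mtrf1l (2.11 and 1.93 TPM). On TMM-scaled counts 1 of the 11, Mtrf1l, was at least 1.2-fold higher in replicate 2, with a log2 ratio of 0.44, while its TPM was lower there. Mtfmt was the 1 gene lower by that fold. Over all genes tested, 4.39% were higher and 6.58% lower by 1.2-fold.

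The 22 genes of ribosome assembly and rRNA modification had a median of 6.19 ± 0.375 TPM, and 4 reached 10 TPM in both libraries. The highest were Malsu1 (21.27 and 19.03 TPM), Dhx30 (17.58 and 12.56 TPM) and Rbfa (14.33 and 11.35 TPM). Rpusd4 (3.09 and 3.13 TPM) and Trmt61b (0.35 and 0.55 TPM) had the lowest means. Of 21 tested 0 were higher and 1 lower by 1.2-fold, against 4.39% and 6.58% of genes tested. The 17 mitochondrial aminoacyl-tRNA synthetases were as low, with a median of 5.84 ± 0.361 TPM and 3 genes at 10 TPM in both libraries. Lars2 had 40.45 and 67.85 TPM, and 120.3 and 239.9 TPM in the kallisto-layout tables. In the gene tables it was followed by Iars2 (16.9 and 16.67 TPM) and Fars2 (14.26 and 15.67 TPM), and the lowest mean levels were those of Pars2 (2.61 and 0.85 TPM) and Mars2 (1.06 and 1.05 TPM). Of 16 tested, 2 were higher by 1.2-fold, against 4.39% of genes tested, and 1 was lower, against 6.58%. Lars2 was among the 2 higher, with a log2 ratio of 0.89, and its level depended on the quantification.

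The 5 genes listed under mRNA stability and activation were all at 10 TPM or more, with a median of 28.21 ± 2.59 TPM. The part of each in mitochondrial translation of this muscle, Mss51 included, was not tested. Mss51, which is restricted mainly to skeletal muscle, had 111.3 and 148.9 TPM and a log2 ratio of 0.56, the 1 gene of the 5 past 1.2-fold. Slirp (63.79 and 61.31 TPM) and Lrpprc (30.04 and 26.38 TPM) form a complex that protects mitochondrial mRNAs. Oxa1l, which inserts protein chains into the inner membrane, had 20.83 and 18.27 TPM, and the translational activator Taco1 had 16.92 and 14.84 TPM. The 2 rRNAs of this ribosome, mt-Rnr2 (71722 and 70619 TPM) and mt-Rnr1 (46391 and 48669 TPM), passed through a step that reduces ribosomal RNA, and their levels are not those of the cell.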

How the data were processed

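Total RNA libraries of 1 group were quantified on mm10 with GENCODE M21, per the file headers and the deposited descriptions. Per the file headers, expected counts and TPM fill the deposited gene tables and RSEM transcript tables. A posterior SD stands beside each count, and this deposited score has no fixed range. The deposited kallisto-layout table holds estimated counts and TPM per transcript, which were summed per gene here. The sources used here give no program versions. The members, roles and lists were chosen with earlier results of these data known.

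Levels are deposited TPM, as mean ± SD over 2 libraries. For ratios, expected counts were rounded and scaled by TMM (edgeR 4.0.16, genes averaging 10 or more counts), and a prior of 0.5 was added. They were counted from a mean count of 100 and 1.2-fold, with exact Clopper-Pearson 95% intervals. Quantifications were compared with a pseudocount of 0.1. The ERCC and other rows that are no gene held 0.527% and 0.474% of counts and were left out. The ratio step was tested on simulated data. Members named are the 10 of highest and 5 of lowest level, the 5 highest and 5 lowest ratios, those apart between quantifications or with a posterior SD above 5%, those led by another biotype, those of functional sites or human disease, and of each list the 3 highest and 2 lowest. The leading transcript of 1 member is not reported here. The genes of copies, head-to-head pairs and promoter stretches, and Mrpl33, were named after their values were seen. Alternatives were DESeq2 1.42.0 size factors, library and ERCC totals, deposited TPM, other minimums, priors, folds and pseudocounts, the kallisto-layout table and single libraries. The software was scipy 1.17.1, pandas 2.3.3, numpy 2.4.6, Biopython, matplotlib 3.10.9 and R 4.3.3.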

Additional observations from a re-analysis of the deposited data

How the results depend on the processing

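The members' median of 23.2 TPM became 24.6 with full gene lengths and 51.8 with TPM rescaled over nuclear coding genes, and it was 22.4 to 24.0 in single libraries. At a limit of 20 TPM 42 members passed in place of 69. In single libraries 70 passed. The share of all genes at these settings is not given here. The ratio of small to large subunit medians was 1.02 in the kallisto-layout tables and 0.912 to 1.0 in single libraries, and that of homologues to mitochondria-specific genes was 1.31 and 1.32 to 1.34.

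The median log2 ratio of the members was -0.053 with library totals, 0.1003 with ERCC totals and -0.12 with deposited TPM. All genes tested moved with it, and the difference between members and all genes stayed between 0.0044 and 0.014 over the settings run. Members higher by the fold used were 2, and 1 with library totals, 6 with ERCC totals, 1 with deposited TPM, 4 in the kallisto-layout counts, 10 at 1.1-fold and 0 at 1.5-fold. Genes tested were 4.39%, 2.64%, 10.6%, 3.55%, 4.45%, 14.7% and 0.536% in the same order. Members lower were 0, and 1 with library totals, 10 with deposited TPM, 1 with no filter on low counts, 1 at a mean count of 10 and 6 at 1.1-fold. Genes tested were 6.58%, 10.2%, 23.5%, 19.3%, 12.7% and 17.1%. The 1 member lower with no filter and at a mean count of 10 was Mrpl23, at -0.58 (-1.46 to 0.23). Its counts depended on how reads were divided with Mrpl23-ps1. Mrps34 stayed above 1.2-fold in replicate 2 except on the TPM scale (log2 0.21), and Mrps11 fell below it with library totals (0.23) and on the TPM scale (0.14).

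Members apart between quantifications were 0 at a mean of 5 TPM, which leaves out Mrpl23, against 2.07% of genes. They were 2 in replicate 1 alone, against 3.85% of genes, and 3 in replicate 2 alone, against 3.67%. Members led by another biotype were 16 to 17 in single libraries, for which the share of all genes is not given here. Further settings were chosen after seeing the data. With the reads of Mrpl23-ps1 added, Mrpl23 had a log2 ratio of 0.29, which makes 3 members higher, against 4.40% of genes tested. Head-to-head neighbours within 300 bases were found for 19 members, or 24.4%, against 11.0% of genes. Within 2000 bases they were found for 32 members, or 41.03%, against 17.01% of genes.

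No paired analysis was possible because there is 1 group of 2 libraries. For the same reason the ratio between libraries could not be recomputed without a library. Depth limits the ratios most for low counts: apart from Mrpl23, the lowest mean count of a member was 209.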
